A study of Mus musculus with 2 samples.

Results

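Expression of 9 genes of phosphoinositide signalling was followed in mouse bone marrow derived macrophages, 1 array of macrophages labelled beta-catenin deficient and 1 array of control macrophages. The genes were Inpp4b, Inpp4a and Inpp5d, which encode phosphatases, Pik3ca, Pik3cd and Pik3cg, which encode kinase subunits, Pik3r1 and Pik3ap1, which encode a regulatory subunit and an adaptor, and the effector kinase gene Akt1. They were taken by symbol from the deposited value table, in which each had 1 row, out of 19863 genes with a single annotated symbol. The 9 were selected on the difference between the same 2 arrays, in which Inpp4b was among the genes with the largest negative values, so their values are given as a description and not as a test. Both groups came from mice of 8 weeks of age. Flushed marrow was grown with L929-conditioned medium (L929 is a line of mouse fibroblasts that releases macrophage colony-stimulating factor), and total RNA was labelled with biotin for an Affymetrix 1.0 ST array, whose probes lie along the whole transcript. The labels used here name no allele, deleted exons, Cre driver, strain or number of animals per culture.

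Class I phosphoinositide 3-kinases add a phosphate to a membrane lipid after receptors such as that for macrophage colony-stimulating factor are engaged. The product, PIP3, draws Akt and other kinases to the membrane and promotes survival, growth and migration of macrophages. Inositol 5-phosphatases such as SHIP1 turn PIP3 into PI(3,4)P2, and inositol 4-phosphatases remove a further phosphate from that lipid, so kinases and phosphatases together set how long the signal lasts. The arrays measured the RNA of these enzymes and not the lipids or the phosphorylation of Akt.

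Each value is a log2 RMA value, and each difference is the array labelled deficient minus the control array on the log2 scale. With 1 array per group the spread between cultures was not measured, so no p-value or error is given, and "higher" and "lower" describe these 2 arrays only. Genes were counted when the higher of both values reached 7.28, the median over the whole table and called the floor here, and when the difference reached 1.5-fold (0.58 on the log2 scale) or 2-fold (1 on that scale). The values ran from 2.12 to 13.98 in the array labelled deficient and from 2.70 to 14.11 in the control array. Ctnnb1, which encodes beta-catenin, stood at 11.44 in the array labelled deficient against 11.29 in the control array, a difference of 0.15. It was not reduced in the array labelled deficient. The labels name no deleted exons, and the position of the Ctnnb1 probes was not examined. This value gives no check of the deletion, the reason for it was not tested, and every direction below rests on the label. The growth factor receptor Csf1r stood at 12.35 in the array labelled deficient and 12.25 in the control array. The surface marker Adgre1 stood at 12.23 on both. Of 19 macrophage identity genes with a row, 17 reached the floor and 2 did not. Among the 17, 1 was at least 1.5-fold higher, the Fc receptor gene Fcgr1 (0.78). Another 1 was at least 1.5-fold lower, the myeloid transcription factor gene Cebpa (-0.71). The median was 0.15, and the others lay between -0.38 for Lyz2 and 0.50 for Mrc1. Of 13 fibroblast and stromal markers that reached the floor, 11 were higher and 0 lower by at least 1.5-fold (median 1.04), and the summed linear level of all 15 with a row was 19480 in the array labelled deficient and 9037 in the control array. Of 16 neutrophil markers, 12 were higher and 0 lower (median 1.24), with summed levels of 19544 in the array labelled deficient and 9290 in the control array. Such sums weigh the brightest probes most and do not measure a share of cells. Of 5 mast cell and basophil markers that reached the floor 3 were higher and 0 lower, and another 5 with a row missed it. Those 3 reached the floor only in the array labelled deficient, so the floor itself favoured that direction. Of 6 erythroid and megakaryocyte markers 3 were higher and 2 lower (2 more below the floor). Of 5 dendritic cell markers 3 were higher and 2 lower (6 more below it), and of 8 osteoclast markers 4 were higher and 0 lower (2 more below it). Of 5 T and NK cell markers 1 was higher and 1 lower (6 more below the floor), and of 5 B cell markers 0 were past 1.5-fold (5 more below it). Some called markers of the stromal, neutrophil, erythroid and megakaryocyte, dendritic, and T and NK cell lists also reached the floor on 1 array only. Over all genes that reached the floor, 7.54% were higher and 8.81% lower by at least 1.5-fold. RMA values have no zero, so no marker could be called absent.

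All 9 genes reached the floor on both arrays. In the array labelled deficient 7 were lower and 2 higher, and 3 were lower by at least 1.5-fold, namely Inpp4b, Pik3cg and Inpp5d. No member was higher by that much. Among the 10657 genes that reached the floor, 8.81% were at least 1.5-fold lower and 7.54% at least 1.5-fold higher. The members were picked with these differences known, so nothing is read from their share of 3 in 9. The median difference of the 9 was -0.36 (-0.31 over the other 8 without Inpp4b), beside -0.08 over all genes that reached the floor, of which 58.9% were lower by any amount. The differences spread from -1.73 for Inpp4b to 0.24 for Pik3ap1. The RNA came from whole cultures, in which fewer cells of a type and less RNA per cell cannot be told apart. Stromal and neutrophil markers, with medians of 1.04 and 1.24, were higher in the same array, and their part in the differences of the 9 genes and of the gene lists below was not tested. The shares of 8.81% lower and 7.54% higher are also the background for the small counts in those gene lists.

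**Figure D1:**
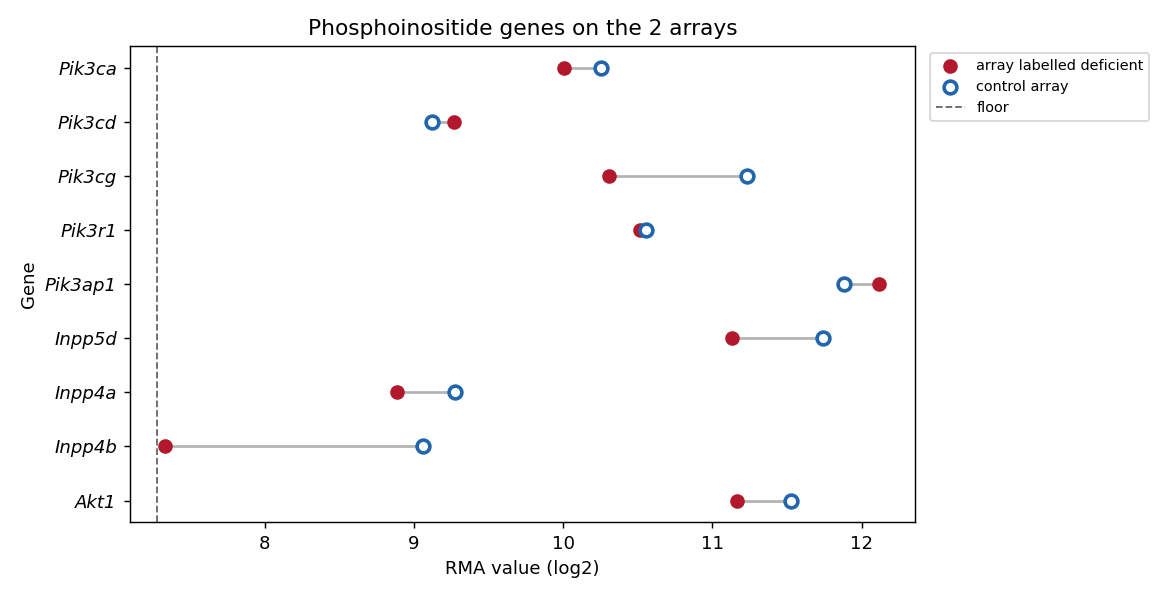
RMA value (log2) of each of the 9 genes in the array labelled deficient (filled red) and the control array (open blue), joined by a grey line, with the floor of 7.28 dashed. Inpp4b has the longest line and ends at 7.33 in the array labelled deficient, just above the floor. Each gene is read by its own probes, so only the 2 points of a line can be compared.

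Inpp4b encodes the type II inositol polyphosphate 4-phosphatase, known from human tumours as a brake on Akt signalling. Its transcript cluster, 10573082, stood at 7.33 in the array labelled deficient against 9.06 in the control array. The difference of -1.73 is a 3.31-fold lower level in the array labelled deficient. It was the 12th lowest of the 10657 ranked genes and the only member past 2-fold, a size reached downwards by 1.59% and upwards by 2.96% of all genes that reached the floor. Its value in the array labelled deficient lay 0.05 above the floor. A loess curve of the difference on level, fitted over the whole table, ran at -0.10 at the level of Inpp4b, and subtracting it left -1.63. Its paralogue Inpp4a, the type I 4-phosphatase of endosomal membranes (transcript cluster 10345580), stood at 8.88 against 9.27, a difference of -0.39. Both were lower in the array labelled deficient, and Inpp4b by 1.34 more on the log2 scale than Inpp4a.

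Inpp5d encodes SHIP1, the 5-phosphatase of blood cells that removes PIP3 and restrains growth factor and Fc receptor signals in macrophages. Its transcript cluster, 10348244, stood at 11.13 in the array labelled deficient and 11.74 in the control array, a difference of -0.61 that lay just past 1.5-fold. It fell short of 1.5-fold when the arrays were centred (-0.53) and when the trend with level was subtracted (-0.57). Inppl1, which encodes the related and more widely expressed SHIP2, differed the other way, at 9.94 against 9.53 (0.41). Of the 12 5-phosphatases in all, which all reached the floor, Inpp5d was the only one past 1.5-fold, and the median of -0.06 turned positive under centring, quantile normalization and loess. The others at the ends of the list were Inpp5k (-0.35) and Inpp5j (-0.15) on the lower side and Inpp5a (0.28) and Inpp5e (0.03) on the higher side.

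Of 16 genes of 3- and 4-phosphatases that reached the floor, 2 were lower and 0 higher by at least 1.5-fold, with a median of -0.28. The second after Inpp4b was Sacm1l, which encodes the PI4P phosphatase of the endoplasmic reticulum, at 8.60 in the array labelled deficient and 9.27 in the control array (-0.67). Mtmr9, an inactive myotubularin that partners active ones, was next at -0.54, with a dimmer second transcript cluster at -0.79. Sbf2, another inactive myotubularin, was the highest at 0.29, followed by Pip4p2, a PIP2 4-phosphatase of endosomes and lysosomes (0.03), and the myotubularin gene Mtm1 (0.01).

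The 250 bases before a RefSeq start of each of the 3 genes past 1.5-fold (GRCm38.p6, 5′ to 3′ on the gene's strand) are shown because these genes carry the differences. Capitals mark 3 short motifs on either strand: the TCF/LEF core CTTTGA, through which beta-catenin's DNA-binding partners act, the PU.1 core GAGGAA of the myeloid factor, and the FOXO core GTAAACA of the factors that Akt keeps out of the nucleus. The windows are chr8:81342312-81342561 on the plus strand for Inpp4b, chr1:87620062-87620311 on the plus strand for Inpp5d, and chr12:32208660-32208909 on the minus strand for Pik3cg, the more upstream of its starts.
Inpp4b: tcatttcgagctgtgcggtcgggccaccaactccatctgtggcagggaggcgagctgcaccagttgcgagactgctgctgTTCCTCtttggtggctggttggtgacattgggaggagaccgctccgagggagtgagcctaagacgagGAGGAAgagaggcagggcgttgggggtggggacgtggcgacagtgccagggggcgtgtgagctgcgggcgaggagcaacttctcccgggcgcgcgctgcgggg
Inpp5d: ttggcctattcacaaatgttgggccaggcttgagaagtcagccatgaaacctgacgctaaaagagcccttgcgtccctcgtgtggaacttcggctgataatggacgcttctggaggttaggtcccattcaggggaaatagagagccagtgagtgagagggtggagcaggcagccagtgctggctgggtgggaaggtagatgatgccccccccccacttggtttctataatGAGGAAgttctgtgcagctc
Pik3cg: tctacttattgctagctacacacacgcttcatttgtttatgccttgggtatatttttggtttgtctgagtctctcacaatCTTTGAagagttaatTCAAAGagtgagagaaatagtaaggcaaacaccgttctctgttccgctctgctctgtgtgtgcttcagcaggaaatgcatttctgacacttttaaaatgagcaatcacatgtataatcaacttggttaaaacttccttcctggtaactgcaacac
The Inpp4b window held GAGGAA in both orientations, CTTTGA nowhere, and 19 CpG pairs at 66.0% G and C. The Inpp5d window held GAGGAA once, close to the start, at 54.4% G and C. The Pik3cg window held CTTTGA in both orientations at 38.8% G and C, the lowest among the 16 windows of the 9 genes, whose median was 55.0% beside 52.4% over all 32851 windows of the table. Its second start, whose window overlaps the one shown, held GAGGAA in both orientations and GTAAACA once. Over the 16 windows, CTTTGA was found in 1, GAGGAA in 4 and GTAAACA in 2, and these motifs occur in 13.8%, 23.3% and 3.17% of all windows of the same length. The remaining matches lay before Pik3ap1 (GAGGAA) and Akt1 (GTAAACA). A match is a run of letters and was not examined for binding. The 3 motifs share no letters within the printed windows.

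The kinase subunits differed among themselves. Pik3cg encodes p110 gamma, the catalytic subunit that chemoattractant receptors activate in leukocytes. Its transcript cluster, 10399924, stood at 10.31 in the array labelled deficient and 11.23 in the control array, a difference of -0.93 or a 1.90-fold lower level. Pik3r5, which encodes the p101 partner that ties p110 gamma to G proteins, was also lower, at 10.69 against 11.14 (-0.44), and Pik3r6, which encodes the alternative partner p87, differed by -0.12. The Pik3cg difference stayed past 1.5-fold under each of 3 other scalings, from -0.85 to -0.92.

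Pik3cd encodes p110 delta, the other catalytic subunit that is enriched in leukocytes, and it did not follow Pik3cg. It stood at 9.27 in the array labelled deficient and 9.12 in the control array (transcript cluster 10518686, difference 0.15), so Pik3cg differed from it by -1.08 on the log2 scale. Pik3ca, which encodes the widely expressed p110 alpha, stood at 10.00 in the array labelled deficient and 10.26 in the control array (transcript cluster 10491331, difference -0.25). Of 7 catalytic subunits of classes I to III that reached the floor, Pik3cg was the only one past 1.5-fold, and the median was -0.25. The class III kinase Pik3c3, which acts in autophagy and endosome traffic, differed by -0.36. The class II gene Pik3c2b differed by -0.42. Its control value of 7.28 only just met the floor, and its value of 6.86 in the array labelled deficient lay below it.

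Pik3r1 encodes p85 alpha, the regulatory subunit that holds class IA kinases at tyrosine-phosphorylated receptors. It was nearly level, at 10.51 in the array labelled deficient and 10.55 in the control array (transcript cluster 10411782, difference -0.04), and its sign turned under centring and loess. Of the 5 regulatory subunits that reached the floor, 0 were past 1.5-fold in either direction. Their median was -0.12, and Pik3r2, which encodes p85 beta, differed by -0.15.

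Pik3ap1 encodes BCAP, an adaptor that couples Toll-like receptors of macrophages to the kinase. It was the highest member, at 12.12 in the array labelled deficient and 11.88 in the control array (transcript cluster 10467578, difference 0.24). The 10 adaptors and binding partners, Pik3ap1 among them, went both ways, with 2 lower and 1 higher by at least 1.5-fold. Hcst encodes DAP10, a transmembrane adaptor with a binding site for the kinase. It was at 6.70 in the array labelled deficient, below the floor, and 8.02 in the control array (-1.32). Gab3, which encodes a docking protein of the macrophage colony-stimulating factor receptor, was at 8.40 and 9.22 (-0.82). Irs1, the insulin receptor substrate, was at 8.43 and 6.84 (1.59), with its control value below the floor. Gab1 (0.51) and Irs2 (-0.49) lay within 1.5-fold.

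**Figure D2:**
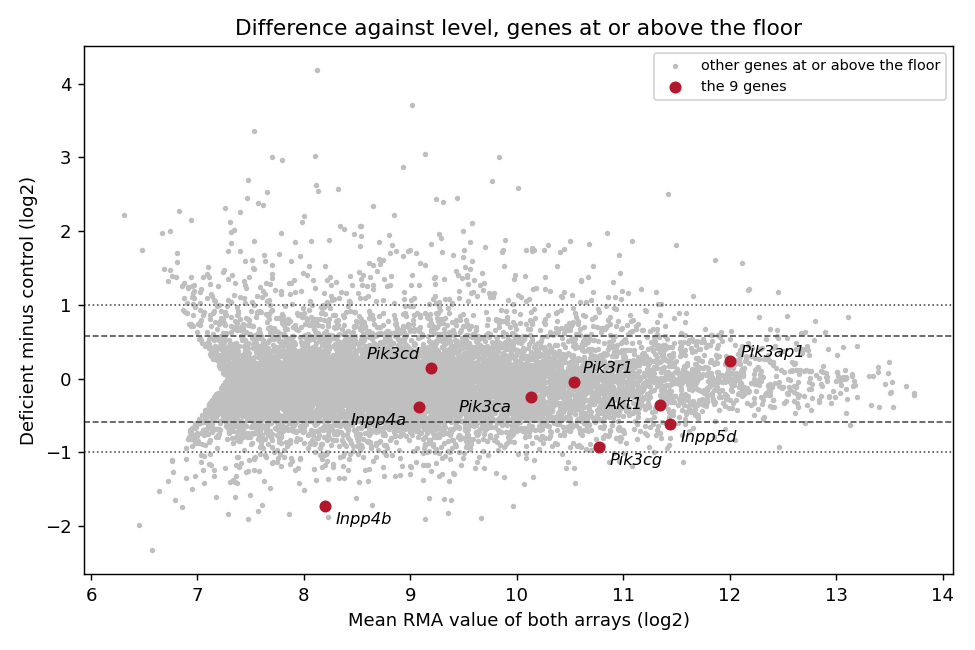
Difference between the arrays (deficient minus control, log2) against the mean RMA value of both arrays for the 10657 genes that reached the floor (grey) and the 9 genes (red), with lines at 1.5-fold (dashed) and 2-fold (dotted). Inpp4b lies at the lower edge of the cloud at -1.73, Pik3cg at -0.93 and Inpp5d at -0.61, and the other 6 lie between the dashed lines.

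Akt1 encodes the main effector kinase that PIP3 brings to the membrane. It stood at 11.17 in the array labelled deficient and 11.52 in the control array (transcript cluster 10402766, difference -0.36). Of 13 genes of the Akt module that reached the floor, 0 were lower and 1 was higher by at least 1.5-fold, with a median of -0.07 that turned positive under centring and loess. The higher gene was Prr5, which encodes a subunit of the mTORC2 complex that phosphorylates Akt, at 8.60 in the array labelled deficient and 7.72 in the control array (0.88). Pdpk1, the gene of the other Akt-activating kinase, differed by -0.52 and Mtor by -0.41. Phlpp1, which encodes a phosphatase that switches Akt off, differed by 0.31, and its paralogue Phlpp2 by 0.07. Akt2 was read by 2 transcript clusters that disagreed in sign, at 0.04 and -0.25.

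Among 13 genes of Akt substrates and the mTORC1 branch, 1 was lower and 0 higher by at least 1.5-fold (median -0.11). It was Foxo1, the gene of a transcription factor that Akt inactivates, at 8.03 in the array labelled deficient and 8.77 in the control array (-0.74). Rptor, the gene of the mTORC1 scaffold (-0.57), and Eif4ebp1, the gene of a translation repressor (-0.55), lay just within 1.5-fold. The highest were Tbc1d4, which encodes a regulator of glucose transporter traffic (0.21), Akt1s1, which encodes an mTORC1 inhibitor (0.21), and the tumour suppressor gene Tsc1 (0.17). Of 17 genes known to be switched on by FOXO factors, 2 (11.8%) were higher and 1 (5.88%) lower by at least 1.5-fold (median 0.14). The shares over all genes that reached the floor were 7.54% and 8.81%, so nothing is read from these small counts. The higher were Pdk4, a kinase that limits pyruvate oxidation, at 9.71 and 8.45 (1.27), and the ubiquitin ligase Fbxo32 (0.64), and the lower was the stress gene Gadd45a (-0.71). Bcl6 (-0.49) and Txnip (0.51) lay within 1.5-fold.

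Of the 10 PI4, PIP4 and PIP5 kinase genes that reached the floor, 0 were past 1.5-fold, with differences from -0.50 for Pi4k2b to 0.20 for Pi4ka and a median of -0.19. Pi4kb, the gene of a Golgi PI4 kinase, differed by -0.32 and Pip4k2c by -0.29, while Pikfyve, the gene of the endosomal kinase that makes PI(3,5)P2, differed by 0.16 and Pi4k2a by 0.01. Of 14 phospholipase C and IP3 handling genes, 2 were lower and 1 higher by at least 1.5-fold (median -0.15). Plcb4 was at 6.67 in the array labelled deficient, below the floor, and 8.08 in the control array (-1.41), and the IP3 receptor gene Itpr3 differed by -0.60. Plcb3, which encodes an isoform that G protein-coupled receptors activate, differed by 0.59, Itpkb, the gene of an IP3 kinase, by 0.47, Plcd3 by 0.43 and the diacylglycerol kinase gene Dgkz by -0.44. Of 110 genes in the lists without FOXO targets, 108 had a row with a single symbol here and the other 2 were not analysed. Over all 91 genes of these lists that reached the floor, other than the 9, 6 (6.59%) were at least 1.5-fold lower and 3 (3.30%) higher, beside 8.81% and 7.54% over all genes that reached it. Their median was -0.13, beside -0.08 over the same genes. The lists were chosen with earlier results of these data known.

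**Figure D3:**
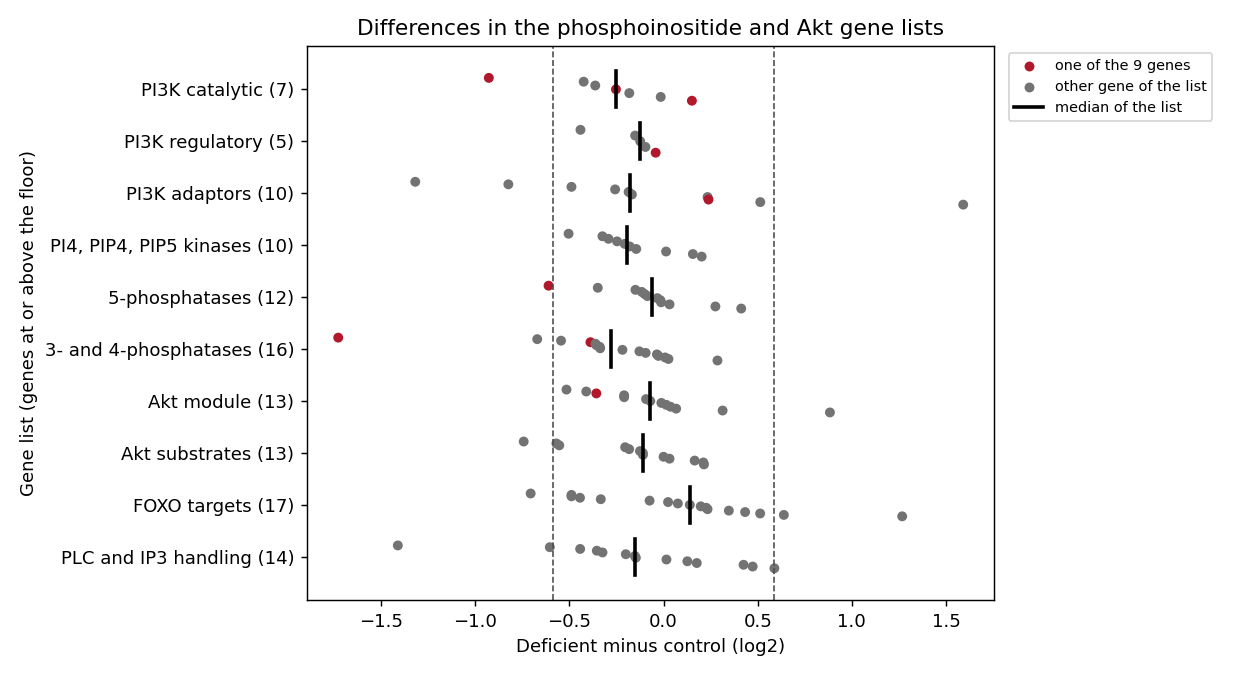
Difference between the arrays (deficient minus control, log2) for each gene that reached the floor in the 10 gene lists, with the 9 genes in red, other genes in grey, the median of each list as a black bar and 1.5-fold dashed. The number of genes stands beside each list name. Medians run from -0.28 for the 3- and 4-phosphatases to 0.14 for the FOXO targets, and most genes lie between the dashed lines.

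The values of the 9 genes kept their order at both ends under other scalings of the arrays. Inpp4b ran from -1.63 to -1.73 over the deposited values, centring, quantile normalization and loess. Inpp5d was past 1.5-fold in the deposited values and after quantile normalization (-0.62) and within it in the others, so 3 members were past 1.5-fold in 2 of these scalings and 2 members in the other 2. The median difference of all 19863 genes was -0.15 as deposited. The median of the 9 lay between -0.28 and -0.36, with 6 or 7 of them lower.

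**Figure D4:**
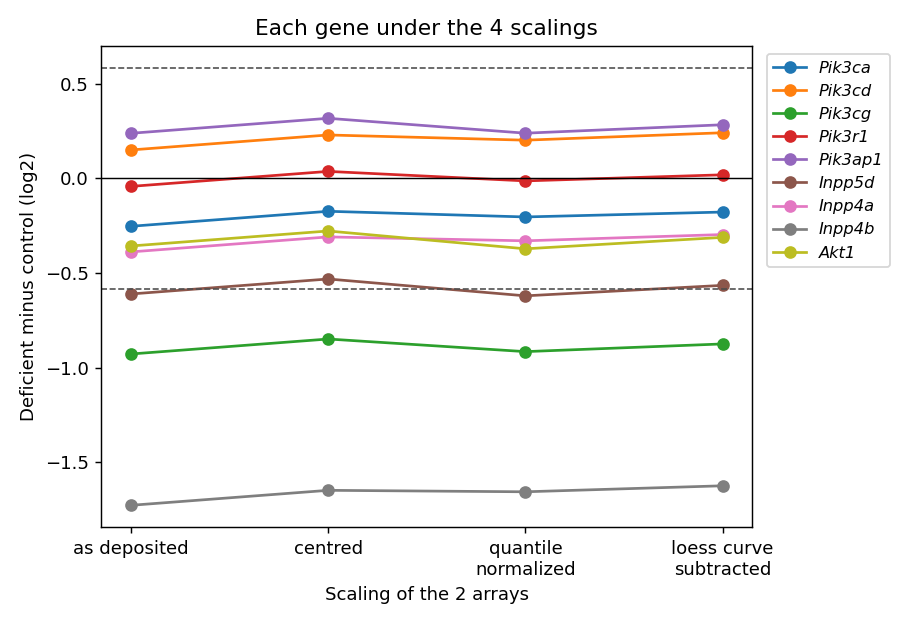
Difference between the arrays (deficient minus control, log2) of each of the 9 genes as deposited, after centring, after quantile normalization and after subtraction of a loess curve on level, with 1.5-fold dashed. Inpp4b and Pik3cg stay below the dashed line throughout, Inpp5d crosses it, and Pik3r1 crosses 0.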

How the data were processed

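Per the labels, total RNA of 2 macrophage cultures was hybridised to 1 array each. The deposited table held 25917 rows of log2 values that, per the submitters' processing notes, came from RMA, which corrects background, normalizes probes between arrays and summarises them per transcript cluster. The log2 scale was read from the range of the values. No source used here gives the RMA version or settings, the genome build, or whether both columns came from 1 run. The median was 7.24 in the array labelled deficient and 7.31 in the control array, and the control values carry more digits. Whether the 2 columns were normalized together was not tested. GEO's platform annotation supplied gene symbols: 21624 had 1 symbol, 1568 several and 2725 none. The row with the highest mean was kept per gene. Promoter windows came from RefSeq (GRCm38.p6), with all 9 genes matched by symbol. Differences, counts and medians were computed with pandas 2.3.3 and the loess curve with statsmodels 0.14.6 (span 0.3). The counting code recovered set differences in simulated columns without noise, which checks the arithmetic and not the counts in these data. No test between groups was made, and the number of arrays limits the precision. The members and lists were chosen with earlier results of these data known. Named genes are the 9 members, Ctnnb1, genes of a pathway list past 1.5-fold or among its 3 highest or lowest, and the 3 genes nearest to Inpp4b. The nearest genes are not given, since levels of different probes cannot be compared. Csf1r, Adgre1, Fcgr1, Cebpa, Lyz2, Mrc1, Akt2 and the second Mtmr9 cluster were added after their values were seen.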

Additional observations from a re-analysis of the deposited data

How the results depend on the processing

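The alternatives were centring, quantile normalization, a loess curve on level, the mean of all rows of a gene, and other floors (none, on the mean of both values, at percentile 75). Of 181 recomputed values 176 moved by less than 0.37 (the scaled median absolute deviation of the differences) or, for counts, by at most 1.5 times. Each member had 1 row, so the mean of all rows and the other floors could not alter its difference. No member past 1.5-fold changed sign. Centring took off -0.08 and loess -0.05 to -0.10 from these members, too little to turn a difference of that size. Signs did change near 0, in 2 of 62 differences of single members (Pik3r1, under centring and loess) and 5 of 84 list medians (5-phosphatases under 3 scalings, the Akt module under 2). With the floor at percentile 75 (9.07), which Inpp4b missed with its control value of 9.06, 2 members were past 1.5-fold in place of 3 and 0 past 2-fold in place of 1, 922 genes were past 1.5-fold and 256 past 2-fold, against 1743 and 484. Without a floor these counts were 3580 and 817, with 27.7% and 43.1% of the calls higher. With the floor of 7.28, higher genes made up 46.1% of the 1.5-fold calls, 59.4% after centring, 56.2% after quantile normalization and 61.2% after loess, and 65.1% of the 2-fold calls, 76.3% after loess. No paired analysis was possible because each group had 1 array. Depth has no counterpart in RMA values, and signal over background is not given.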
